A study of Mus musculus with 16 samples.

Results

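The genes described are 45 interferon-stimulated genes of the mouse, chosen by name as a list of genes that cells switch on after interferon. The list was chosen with earlier results of these data known. They are 45 of the 55385 genes in the count table, and all 45 had enough counts to be among the 16684 genes tested. Poly-A RNA was sequenced from the hippocampus of mice aged 5 months, in 16 libraries of 4 genotypes with 4 libraries each. Wild-type mice were C57BL/6J. Dp16 mice are a model of Down syndrome that carries an extra copy of a segment of chromosome 16, 5xFAD mice carry human transgenes with familial Alzheimer disease mutations driven by the neuronal Thy1 promoter, and 5xFAD-Dp16 mice carry both. The labels name no strain for these 3 genotypes. Wild-type, Dp16 and 5xFAD had 2 male and 2 female libraries each, and all 4 5xFAD-Dp16 libraries were from males. Whether each library is a different mouse is not spelled out in the labels, so the p-values below refer to the spread among libraries, which may be technical in part.

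Interferons are secreted proteins that cells release when they sense foreign or misplaced nucleic acid. Type I interferons bind the receptor made of Ifnar1 and Ifnar2, whose kinases activate transcription factors that include Stat2. Stat2 and Irf9 are parts of a complex that binds a DNA element called the interferon-stimulated response element (ISRE) in the promoters of its target genes, while interferon gamma acts on a different element, GAS. In the brain the products of these genes are best known from infection and from microglia, the resident macrophages. The duplicated segment holds genes of 4 interferon and interleukin 10 receptor subunits, and among the 45 genes it holds Mx1 and Mx2. Parp9, Parp14, Dtx3l and Rtp4 also lie on chromosome 16, outside the segment.

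The DNA around the gene starts was examined first. RefSeq promoter windows on GRCm38.p6, from 250 bases before to 50 bases after the gene start, were found by symbol for 35 of the 45 genes. The core of the ISRE was searched on both strands as GAAANNGAAA, which reads TTTCNNTTTC on the other strand. A gene counted if any of its windows held a match. The ISRE core occurred in 20 of the 35 genes (57.1%), against 3.99% of all 27025 genes with a window. The GAS core, searched as TTCNNNGAA, occurred in 8 of the 35 (22.9%) against 9.55% of all genes with a window, and 6 members held both, with overlapping matches in 2 of them. The letters GAAACTGAAA were the form found in most members, with 9, followed by GAAAGTGAAA with 4.

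Stretches of 200 bases follow for 6 members, 5′ to 3′ on the strand of the gene, with every ISRE core match in capitals. Ifit3 and Ifit3b are shown because they are near copies of each other, Isg15, Oas1a and Bst2 because their matches overlap or sit side by side, and Lgals3bp because it had the smallest adjusted p of the 45 and no match.
Ifit3, chr19:34583329-34583528, plus strand: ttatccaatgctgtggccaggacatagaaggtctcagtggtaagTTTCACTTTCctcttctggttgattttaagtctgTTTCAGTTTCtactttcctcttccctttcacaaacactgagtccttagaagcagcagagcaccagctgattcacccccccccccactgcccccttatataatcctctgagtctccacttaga
Ifit3b, chr19:34607757-34607956, plus strand: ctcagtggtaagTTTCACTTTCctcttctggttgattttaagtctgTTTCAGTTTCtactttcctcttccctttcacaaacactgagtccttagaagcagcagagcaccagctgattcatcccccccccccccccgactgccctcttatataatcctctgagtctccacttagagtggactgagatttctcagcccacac
Isg15, chr4:156200819-156201018, minus strand: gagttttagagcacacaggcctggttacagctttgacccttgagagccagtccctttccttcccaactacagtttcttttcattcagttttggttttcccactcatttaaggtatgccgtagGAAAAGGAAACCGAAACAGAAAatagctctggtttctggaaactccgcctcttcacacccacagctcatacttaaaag
Oas1a, chr5:120907526-120907725, minus strand: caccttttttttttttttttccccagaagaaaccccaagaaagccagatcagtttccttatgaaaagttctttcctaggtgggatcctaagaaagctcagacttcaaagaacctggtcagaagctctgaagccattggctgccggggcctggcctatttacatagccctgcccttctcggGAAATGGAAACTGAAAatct
Bst2, chr8:71537473-71537672, minus strand: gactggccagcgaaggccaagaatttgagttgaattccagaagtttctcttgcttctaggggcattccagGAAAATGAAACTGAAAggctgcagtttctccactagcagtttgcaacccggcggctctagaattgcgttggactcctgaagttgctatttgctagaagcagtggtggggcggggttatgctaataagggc
Lgals3bp, chr11:118401960-118402159, minus strand: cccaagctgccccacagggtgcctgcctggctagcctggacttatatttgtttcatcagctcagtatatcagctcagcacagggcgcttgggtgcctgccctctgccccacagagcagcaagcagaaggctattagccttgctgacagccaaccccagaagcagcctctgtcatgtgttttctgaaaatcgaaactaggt
Ifit3 and Ifit3b hold the same pair of matches in the same order, TTTCACTTTC and then TTTCAGTTTC. In Isg15 the 3 matches run into 1 stretch, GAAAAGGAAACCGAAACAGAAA, and Oas1a and Bst2 each carry 2 matches that share their middle GAAA. A match is a description of the letters, and the windows say nothing about which protein binds there.

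The libraries held 15.8 to 25.0 M (mega) counts in total. The labels were checked on App, which lies in the duplicated segment, and on Thy1. App was at 2637 to 3257 CPM (counts scaled to a common library size) in the 8 libraries with the duplication and at 1645 to 2258 without it, while Thy1 was at 1639 to 3083 in the 8 libraries with the transgenes and at 761 to 929 without. All 11 microglial marker genes and all 8 hippocampal ones were detected. The hippocampal genes summed to between 556 CPM in wild-type replicate 4 and 1761 CPM in 5xFAD-Dp16 replicate 2. They stood at 861 CPM in 5xFAD-Dp16 replicate 3, 898 in 5xFAD replicate 2 and 907 in 5xFAD replicate 4. Libraries varied in tissue from outside the hippocampus: choroid plexus genes summed to between 44.5 and 6556 CPM, and genes of midbrain and hypothalamus stood at 132 CPM in wild-type replicate 4, 355 in 5xFAD replicate 2 and 84.6 in 5xFAD-Dp16 replicate 3, against 5.71 to 11.7 in the other 13 libraries. Thalamus genes stood at 340 CPM in 5xFAD replicate 4, against 61.5 to 161 in the other libraries.

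By deposited RPKM, the scale per gene length on which levels of different genes can be compared, most members were low. In wild-type the highest were Ifi27 at 24.8 ± 7.55, Ifitm3 at 15.3, Lgals3bp at 12.1, Cmpk2 at 7.10 and Bst2 at 5.39, and the lowest were Mx1 at 0.0523, Mx2 at 0.0798 and Oas2 at 0.112 (means, with SD for the first, n = 4). All further values are CPM, which compare 1 gene between libraries.

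The members were higher in the libraries with the 5xFAD transgenes. The 5xFAD effect was averaged over both chromosome 16 backgrounds, 8 libraries against 8, in 1 edgeR model with a term for sex, and a gene was called at an adjusted p below 0.05 over all 16684 genes. On this measure 24 of the 45 genes rose and 0 fell, where 2.44% of all tested genes rose and 0.12% fell. The 24 were Lgals3bp, Bst2, Slfn8, Irf9, Trim30a, Parp9, Parp14, Oasl2, Ifit3b, Irf7, Ifit3, Gbp3, Oas1a, Ifit1, Zbp1, Sp100, Trim25, Mx1, Usp18, Xaf1, Ifitm3, Gbp2, Irgm1 and Isg15. The fitted change was positive in 44 of the 45, against 54.8% of all tested genes, with a median of log2 0.73 (1.65-fold), against a median of log2 0.025 over all tested genes. Leaving out 1 library at a time gave 15 to 25 calls. The lowest count came without Dp16 replicate 3, where 307 of all tested genes were called. With the 10 male libraries alone the count fell to 6, and with terms for choroid plexus and midbrain genes, chosen after seeing the data, it was 14. Over all tested genes the calls in both directions came to 169 and 276 in those fits, against 407 higher and 20 lower with all libraries and no such terms. The low-count filter asked for 0.526 CPM in at least 4 libraries. Zbp1, Oas1a, Oas2, Oasl1, Mx1 and Mx2 reached that level in fewer than 4 of the 8 libraries without the transgenes, so they were tested only because of the libraries with them, and 3 of them, Zbp1, Oas1a and Mx1, were called. Among the other 39 members 21 were called and all 39 fitted changes were positive, with a median of log2 0.69.

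**Figure D1:**
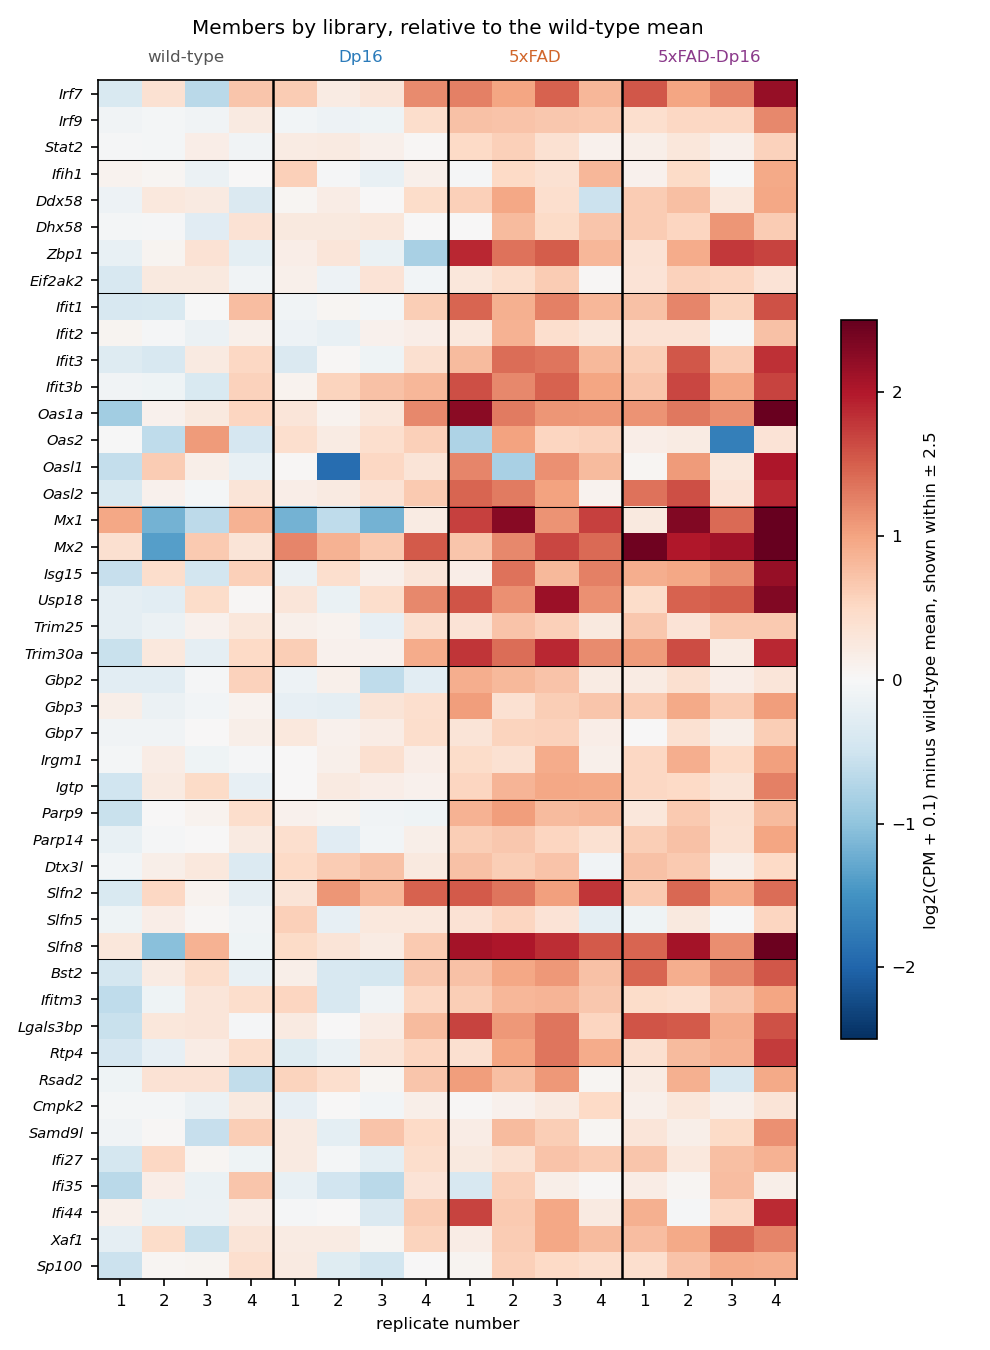
Each of the 45 genes (rows, grouped by role) in each of the 16 libraries (columns, by genotype and replicate number), coloured by log2(CPM + 0.1) minus the wild-type mean and limited to ± 2.5. The columns of 5xFAD and 5xFAD-Dp16 are redder than those of wild-type and Dp16, and 5xFAD-Dp16 replicate 4 is the highest of its group in 35 of the 45 genes.

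**Figure D2:**
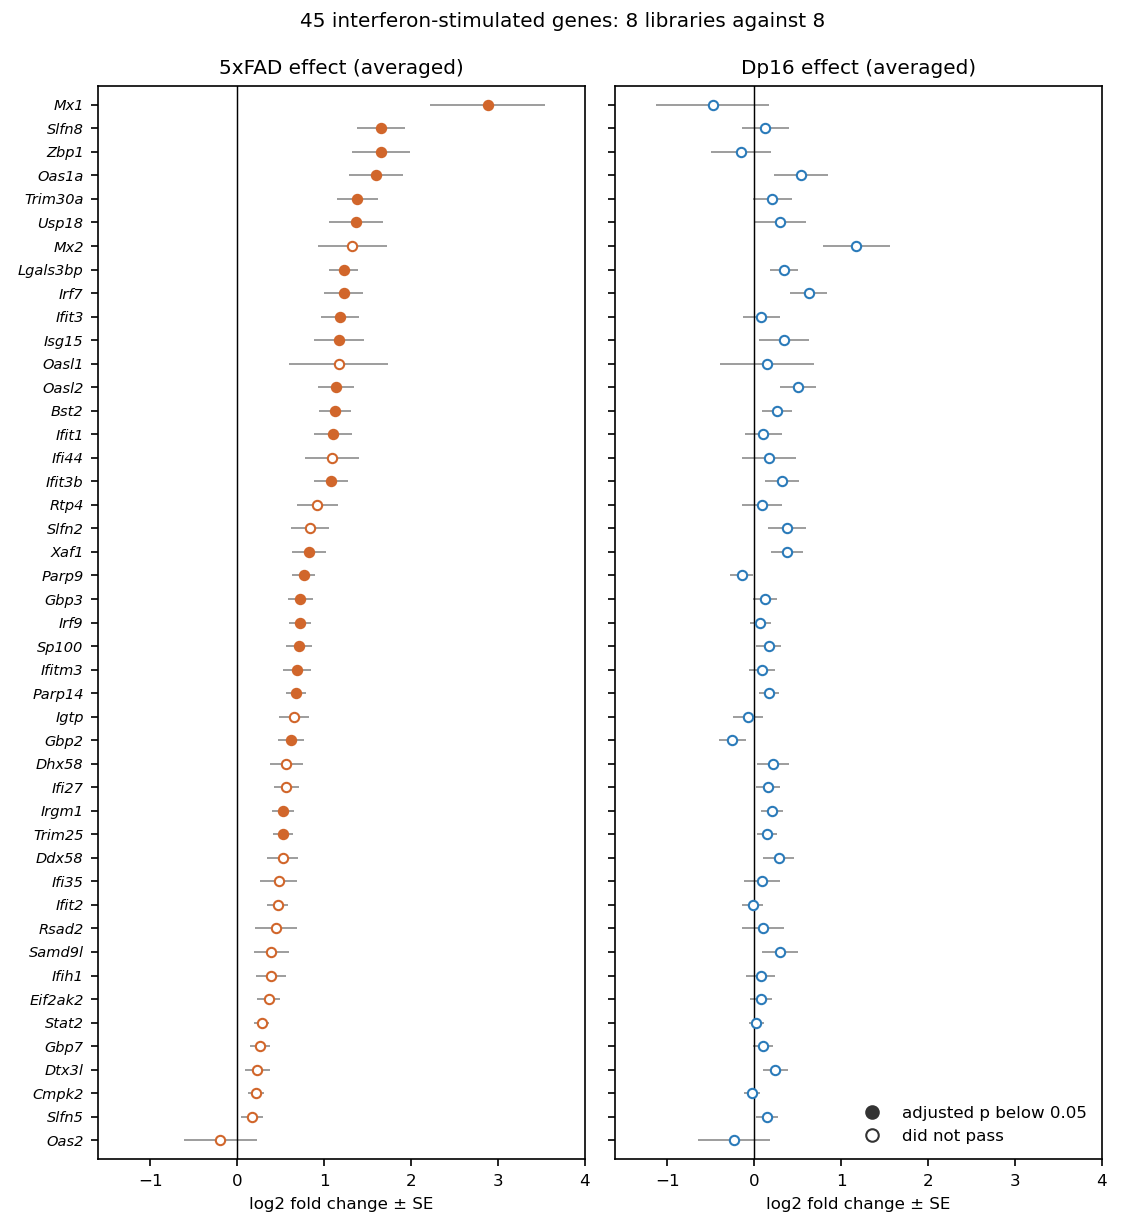
Fitted log2 fold change ± SE of each of the 45 genes for the 5xFAD effect (left) and the Dp16 effect (right), each 8 libraries against 8, with filled points for edgeR adjusted p below 0.05. On the left 24 points are filled and 44 lie above 0, and on the right 0 are filled and 37 lie above 0.

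Markers of microglia differed between the same groups. The summed CPM of the 11 microglial markers was 378 to 411 in wild-type, 367 to 399 in Dp16, 578 to 945 in 5xFAD and 567 to 698 in 5xFAD-Dp16, with no overlap between libraries with and without the transgenes. Of these 11 markers, 9 passed in the 5xFAD effect, all higher, where 2.44% of all tested genes rose and 0.12% fell. The median of the 11 was log2 0.79, close in size to the members' 0.73. More cells of a type and more RNA per cell cannot be told apart in bulk tissue, and the part of microglia in the members' change was not tested. Markers of T cells summed to at most 4.75 CPM and those of monocytes and neutrophils to at most 13.02 CPM in any library, and endothelial markers to 200 to 333 CPM with 0 of 7 called. Genes of midbrain and hypothalamus also had a positive median fitted change, log2 2.24, with 1 of the 5 tested called. Among the libraries with the transgenes, only 5xFAD replicate 2 (355 CPM) and 5xFAD-Dp16 replicate 3 (84.6 CPM) were high in their sum. Wild-type replicate 4 was high as well (132 CPM). The group medians of this sum lay between 8.99 CPM (Dp16) and 10.5 CPM (5xFAD). The part of midbrain and hypothalamus genes in the members' change was not tested. Without wild-type replicate 4, 5xFAD replicates 2 and 4 and 5xFAD-Dp16 replicate 3, libraries picked from earlier results, 23 members were called, 20 of them among the 24. Over all tested genes 490 were called in that fit, against 407 higher and 20 lower with all libraries. Of the libraries left out, 5xFAD replicate 4 was not high in midbrain genes, at 11.7 CPM, but was the highest in thalamus genes, at 340 CPM.

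The transcription factors came first in the pathway, and 2 of the 3 rose. Irf7 (chr7:141262706-141266481), the factor that amplifies type I interferon production, was at 1.66, 2.88, 1.34 and 3.62 CPM in the wild-type libraries, 3.48, 2.54, 2.73 and 5.13 in Dp16, 5.43, 4.46, 6.26 and 3.99 in 5xFAD, and 6.62, 4.48, 5.42 and 10.4 in 5xFAD-Dp16. Every library with the transgenes lay above every wild-type library, and only Dp16 replicate 4 reached into their range. The 5xFAD effect was 2.34-fold (log2 1.22 ± 0.223 SE, edgeR adjusted p = 0.00499). In 5xFAD-Dp16 against wild-type Irf7 rose 3.61-fold (edgeR adjusted p = 0.00884). Irf9 (chr14:55603571-55610030), the DNA-binding partner of Stat2, was at 7.30, 7.55, 7.30 and 9.15 CPM in the wild-type libraries, 7.48, 7.16, 7.19 and 10.5 in Dp16, 13.1, 12.9, 12.4 and 12.4 in 5xFAD, and 10.5, 11.2, 11.1 and 17.9 in 5xFAD-Dp16. The 4 5xFAD values lay close together and above all wild-type and Dp16 values, and replicate 4 was the highest in wild-type, Dp16 and 5xFAD-Dp16. Irf9 rose 1.65-fold (log2 0.73 ± 0.125 SE, edgeR adjusted p = 0.00301). Stat2 (chr10:128270559-128292849) was at 18.6, 18.3, 21.4 and 18.02 CPM in the wild-type libraries, 21.98, 22.3, 20.7 and 19.6 in Dp16, 26.8, 28.96, 24.8 and 20.5 in 5xFAD, and 21.1, 23.2, 20.7 and 28.3 in 5xFAD-Dp16. These ranges overlapped, and Stat2 did not pass at 1.21-fold (log2 0.28 ± 0.0903 SE, edgeR adjusted p = 0.150).

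**Figure D3:**
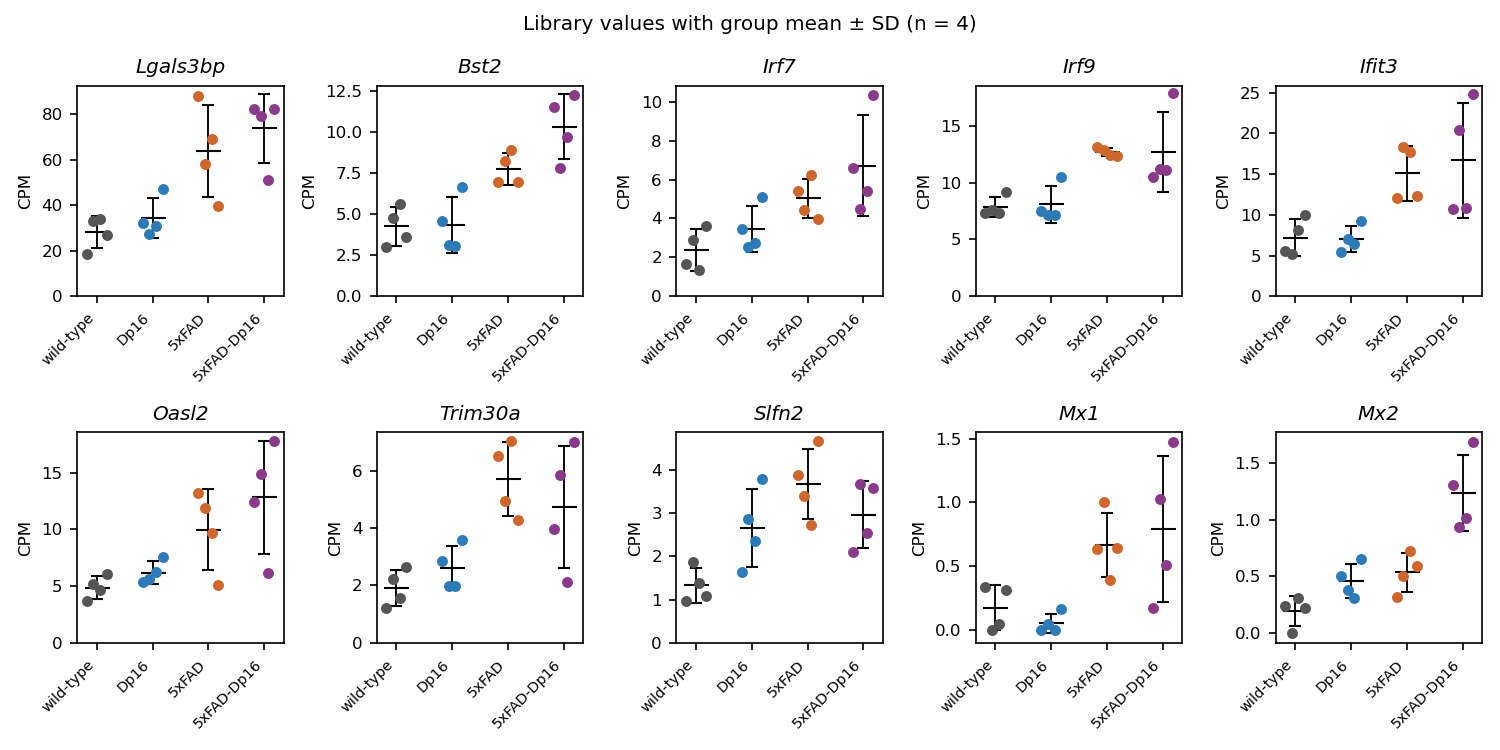
CPM of 10 members in each library (points), with the mean and SD of each genotype (n = 4). Bst2 and Ifit3 show no overlap between the 8 libraries with the 5xFAD transgenes and the 8 without, 3 of the 4 Dp16 values of Slfn2 lie above its wild-type range, and Mx2 is highest in all 4 5xFAD-Dp16 libraries.

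Of the 5 nucleic acid sensors 1 rose, and all 5 had a positive fitted change. Zbp1 (chr2:173206612-173218923), which binds left-handed nucleic acid and can start cell death, was at 0.243, 0.306, 0.401 and 0.226 CPM in the wild-type libraries, 0.337, 0.377, 0.248 and 0.122 in Dp16, 1.34, 0.891, 1.01 and 0.592 in 5xFAD, and 0.396, 0.640, 1.22 and 1.16 in 5xFAD-Dp16. Its values in 5xFAD all exceeded those in wild-type, and those in 5xFAD-Dp16 exceeded those in Dp16, with 1 wild-type value above the lowest of 5xFAD-Dp16. Zbp1 passed the low-count filter through the transgenic libraries alone, with at most 9 counts in any other library, and its fitted rise was 3.15-fold (log2 1.65 ± 0.336 SE, edgeR adjusted p = 0.0116). Eif2ak2 (chr17:78852564-78882573), the kinase PKR that halts translation on double-stranded RNA, was at 5.55, 8.73, 8.77 and 6.93 CPM in the wild-type libraries, 8.04, 6.78, 9.43 and 7.0 in Dp16, 9.01, 10.03, 11.5 and 7.49 in 5xFAD, and 9.34, 11.1, 10.7 and 9.41 in 5xFAD-Dp16. All 4 values in 5xFAD-Dp16 lay above those in wild-type, 5xFAD overlapped with wild-type, and the effect of 1.29-fold did not pass (log2 0.36 ± 0.129 SE, edgeR adjusted p = 0.196). The RNA helicases Ddx58 (RIG-I), Ifih1 (MDA5) and Dhx58 (LGP2) had log2 0.52, 0.39 and 0.57 and did not pass.

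The IFIT proteins bind viral RNA, and 3 of the 4 genes rose. Ifit3 (chr19:34583531-34588731) was at 5.50, 5.19, 8.11 and 9.96 CPM in the wild-type libraries, 5.40, 7.07, 6.39 and 9.20 in Dp16, 12.1, 18.4, 17.7 and 12.3 in 5xFAD, and 10.7, 20.4, 10.8 and 24.8 in 5xFAD-Dp16. All 8 libraries with the transgenes lay above all 8 without, 1 of 3 members for which this held (0.959% of all tested genes). Ifit3 rose 2.27-fold (log2 1.18 ± 0.218 SE, edgeR adjusted p = 0.00543). Its neighbour Ifit3b (chr19:34607970-34613401) was at 3.12, 3.06, 2.54 and 4.98 CPM in the wild-type libraries, 3.54, 4.90, 5.58 and 5.94 in Dp16, 10.4, 7.80, 9.44 and 6.66 in 5xFAD, and 5.43, 10.8, 6.58 and 10.9 in 5xFAD-Dp16. Here 5xFAD lay above both groups without the transgenes, and 5xFAD-Dp16 overlapped with Dp16. Ifit3b rose 2.12-fold (log2 1.08 ± 0.194 SE, edgeR adjusted p = 0.00429), and was called against wild-type in both 5xFAD (adjusted p = 0.0198) and 5xFAD-Dp16 (adjusted p = 0.0283). The transcripts of Ifit3 and Ifit3b are 98.0% identical over 1697 aligned bases, so the split of reads between them is uncertain. Ifit1 (chr19:34640871-34650009) was at 1.85, 1.88, 2.45 and 4.26 CPM in the wild-type libraries, 2.30, 2.54, 2.36 and 3.83 in Dp16, 6.90, 4.62, 6.04 and 4.44 in 5xFAD, and 4.13, 5.89, 3.65 and 7.63 in 5xFAD-Dp16. All 5xFAD values exceeded the wild-type ones, while 2 values of 5xFAD-Dp16 lay below wild-type replicate 4. It rose 2.14-fold (log2 1.10 ± 0.217 SE, edgeR adjusted p = 0.00926). Ifit2 had log2 0.47 and missed the threshold (edgeR adjusted p = 0.0533).

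In the OAS family, enzymes and relatives of enzymes that activate RNase L on double-stranded RNA, 2 of 4 rose. Oasl2 (chr5:114896936-114912234), an OAS-like protein, was at 3.65, 5.15, 4.63 and 6.02 CPM in the wild-type libraries, 5.40, 5.61, 6.20 and 7.57 in Dp16, 13.2, 11.9, 9.67 and 5.08 in 5xFAD, and 12.4, 14.9, 6.13 and 17.8 in 5xFAD-Dp16. 3 of 4 libraries of each transgenic group lay above every library without the transgenes, while 5xFAD replicate 4 lay within the wild-type range and 5xFAD-Dp16 replicate 3 within that of Dp16. Oasl2 rose 2.20-fold (log2 1.14 ± 0.203 SE, edgeR adjusted p = 0.00415). Oas1a (chr5:120896256-120907521) was at 0.195, 0.480, 0.534 and 0.679 CPM in the wild-type libraries, 0.562, 0.471, 0.558 and 1.14 in Dp16, 2.49, 1.23, 1.06 and 1.04 in 5xFAD, and 1.08, 1.24, 1.11 and 2.89 in 5xFAD-Dp16. The transgenic libraries lay above all wild-type ones, and Dp16 replicate 4 reached into their range. Oas1a, also tested because of the transgenic libraries, rose 3.03-fold (log2 1.60 ± 0.312 SE, edgeR adjusted p = 0.00848), with reads that its copy Oas1g, 97.5% identical over 1860 aligned bases, could share. Oasl1 had log2 1.17 with a wide error of 0.570, Oas2 was the member with a negative change (log2 -0.19), and neither passed.

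The Mx genes encode antiviral GTPases and had the lowest RPKM of the members in wild-type, while over all 16 libraries Oas2 was the lowest and Mx1 the next. Mx1 (chr16:97447035-97462907, minus strand), of which C57BL/6J mice carry a defective allele, had 7, 0, 1 and 7 counts in wild-type, 0, 1, 0 and 4 in Dp16, 10, 18, 7 and 13 in 5xFAD, and 3, 24, 10 and 28 in 5xFAD-Dp16. Like Zbp1 it was tested only because of the transgenic libraries, and it had at most 7 counts in any other. It had 0 counts in 3 of the 8 libraries without the transgenes and reached 10 or more counts in 6 of the 8 with them. The 5xFAD effect was 7.38-fold (log2 2.88 ± 0.659 SE, edgeR adjusted p = 0.0260). This call ended without any 1 of wild-type replicate 3, Dp16 replicates 1, 2 and 3, 5xFAD-Dp16 replicate 4 and 5xFAD replicate 2 (adjusted p up to 0.0842). Mx2 (chr16:97535308-97560900, plus strand) had 5, 0, 7 and 5 counts in wild-type, 9, 8, 5 and 16 in Dp16, 5, 9, 13 and 12 in 5xFAD, and 23, 22, 20 and 32 in 5xFAD-Dp16. In CPM its 4 values in 5xFAD-Dp16 lay above those of all other 12 libraries, at 1.30, 0.939, 1.01 and 1.68 CPM against at most 0.726. Mx2, also tested only because of the transgenic libraries, did not pass in the 5xFAD effect (log2 1.33 ± 0.402 SE, edgeR adjusted p = 0.117).

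All 4 genes of the ISG15 modifier system and the TRIM proteins rose. Isg15 (chr4:156199424-156200818), a ubiquitin-like protein joined to other proteins, was at 0.682, 1.48, 0.757 and 1.68 CPM in the wild-type libraries, 0.955, 1.46, 1.18 and 1.34 in Dp16, 1.21, 2.90, 1.96 and 2.71 in 5xFAD, and 2.09, 2.18, 2.53 and 5.21 in 5xFAD-Dp16. 5xFAD-Dp16 lay above both wild-type and Dp16, and 5xFAD overlapped with both. It rose 2.26-fold (log2 1.18 ± 0.288 SE, edgeR adjusted p = 0.0396), a call that ended without any 1 of 12 libraries, all but wild-type replicate 4, 5xFAD-Dp16 replicates 1 and 2 and 5xFAD replicate 1 (adjusted p up to 0.134). Usp18 (chr6:121245906-121270917), which removes Isg15 and restrains the interferon receptor, was at 0.633, 0.611, 1.07 and 0.770 CPM in the wild-type libraries, 0.955, 0.659, 1.05 and 1.87 in Dp16, 2.43, 1.78, 3.63 and 1.78 in 5xFAD, and 1.08, 2.26, 2.33 and 4.16 in 5xFAD-Dp16. Wild-type lay below both transgenic groups, and Dp16 replicate 4 overlapped with them. Usp18 rose 2.58-fold (log2 1.37 ± 0.315 SE, edgeR adjusted p = 0.0275), and the call ended without wild-type replicates 1 or 2, Dp16 replicates 1, 2 or 3, 5xFAD-Dp16 replicate 4 or 5xFAD replicate 1 (adjusted p up to 0.0949). Trim30a (chr7:104409025-104465193), a ubiquitin ligase that dampens Toll-like receptor signals, was at 1.22, 2.23, 1.56 and 2.63 CPM in the wild-type libraries, 2.87, 1.98, 1.98 and 3.58 in Dp16, 6.52, 4.96, 7.04 and 4.29 in 5xFAD, and 3.96, 5.85, 2.13 and 6.995 in 5xFAD-Dp16. 5xFAD lay above all wild-type and Dp16 values, and 5xFAD-Dp16 replicate 3 fell within the wild-type range. Trim30a rose 2.61-fold (log2 1.38 ± 0.239 SE, edgeR adjusted p = 0.00317). Trim25 (chr11:88999376-89020293), the ligase that activates RIG-I, was at 6.91, 7.25, 8.64 and 9.78 CPM in the wild-type libraries, 8.82, 8.53, 6.95 and 10.7 in Dp16, 10.2, 13.4, 12.3 and 9.52 in 5xFAD, and 12.8, 10.2, 12.7 and 12.7 in 5xFAD-Dp16. Its groups overlapped apart from 5xFAD-Dp16 against wild-type, and the rise was 1.44-fold (log2 0.52 ± 0.113 SE, edgeR adjusted p = 0.0182). That call ended without wild-type replicate 1, Dp16 replicate 3 or 5xFAD replicate 2 (adjusted p up to 0.0687).

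Guanylate-binding proteins and immunity-related GTPases act on the vacuoles of intracellular microbes, and 3 of 5 rose. Gbp3 (chr3:142560026-142573209) was at 5.50, 4.45, 4.72 and 5.25 CPM in the wild-type libraries, 4.27, 4.24, 6.20 and 6.67 in Dp16, 10.3, 6.52, 7.66 and 8.04 in 5xFAD, and 7.87, 9.60, 7.75 and 10.4 in 5xFAD-Dp16. The groups with and without the transgenes were apart but for 5xFAD replicate 2, which lay below Dp16 replicate 4. Gbp3 rose 1.66-fold (log2 0.73 ± 0.139 SE, edgeR adjusted p = 0.00721). Irgm1 (chr11:48861968-48871683) was at 7.98, 9.34, 7.62 and 8.11 CPM in the wild-type libraries, 8.32, 8.95, 10.9 and 9.28 in Dp16, 11.4, 10.8, 15.7 and 8.97 in 5xFAD, and 11.9, 15.4, 11.6 and 16.9 in 5xFAD-Dp16. 5xFAD-Dp16 lay above wild-type and Dp16, while 5xFAD replicate 4 lay within the wild-type range. It rose 1.44-fold (log2 0.53 ± 0.129 SE, edgeR adjusted p = 0.0381), and the call ended without any 1 of 10 libraries, all but wild-type replicates 2 and 4, 5xFAD-Dp16 replicates 1 and 3 and 5xFAD replicates 3 and 4 (adjusted p up to 0.117). Gbp2 was at 3.66 to 8.60 CPM in the libraries without the transgenes and at 6.43 to 10.9 CPM in those with them. It rose 1.54-fold (log2 0.62 ± 0.149 SE, edgeR adjusted p = 0.0343) and lost its call without any 1 of 12 libraries, all but wild-type replicate 4, Dp16 replicate 2, 5xFAD-Dp16 replicate 3 and 5xFAD replicate 4 (adjusted p up to 0.111). Igtp (log2 0.65) and Gbp7 (log2 0.27) did not pass.

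The ADP-ribosylation genes Parp9, Parp14 and Dtx3l lie next to each other on chromosome 16, and 2 of the 3 rose. Parp9 (chr16:35938470-35972605), the partner of the ubiquitin ligase Dtx3l, was at 2.82, 4.23, 4.45 and 5.71 CPM in the wild-type libraries, 4.50, 4.38, 3.91 and 3.87 in Dp16, 7.73, 8.74, 7.32 and 7.49 in 5xFAD, and 5.09, 6.66, 5.52 and 7.26 in 5xFAD-Dp16. All 5xFAD libraries lay above all others, those of 5xFAD-Dp16 included. It rose 1.70-fold (log2 0.76 ± 0.133 SE, edgeR adjusted p = 0.00342). The difference of 5xFAD-Dp16 from 5xFAD did not pass in the model (log2 -0.25 ± 0.191 SE, edgeR unadjusted p = 0.215). Parp14 (chr16:35832874-35871544) was at 3.80, 4.23, 4.36 and 5.07 CPM in the wild-type libraries, 5.85, 3.53, 4.16 and 4.80 in Dp16, 6.71, 7.02, 6.37 and 5.67 in 5xFAD, and 6.73, 7.30, 5.67 and 8.68 in 5xFAD-Dp16. Among the libraries without the transgenes, Dp16 replicate 1 alone reached the range of those with them. Parp14 rose 1.59-fold (log2 0.67 ± 0.117 SE, edgeR adjusted p = 0.00336). Dtx3l (chr16:35926511-35939151), which overlaps the start of Parp9 on the opposite strand, was at 6.96, 8.07, 8.86 and 5.75 CPM in the wild-type libraries, 10.4, 11.4, 12.3 and 8.67 in Dp16, 12.2, 11.2, 12.02 and 6.85 in 5xFAD, and 12.2, 11.6, 8.10 and 10.3 in 5xFAD-Dp16. In each of the other 3 genotypes 1 library lay within the wild-type range, Dp16 replicate 4, 5xFAD replicate 4 and 5xFAD-Dp16 replicate 3, and the other 3 libraries lay above it. Dtx3l did not pass in the 5xFAD effect (log2 0.23 ± 0.144 SE, edgeR adjusted p = 0.428), and reads in its overlap with Parp9 cannot be assigned with certainty.

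Schlafen proteins regulate the growth of immune cells and restrict viruses, and 1 of 3 rose. Slfn8 (chr11:83002158-83020810) was at 0.925, 0.306, 1.43 and 0.679 CPM in the wild-type libraries, 1.07, 0.942, 0.868 and 1.22 in Dp16, 3.45, 3.29, 2.91 and 2.32 in 5xFAD, and 2.21, 3.46, 1.77 and 4.47 in 5xFAD-Dp16. All 8 transgenic libraries lay above the other 8. Slfn8 rose 3.16-fold (log2 1.66 ± 0.276 SE, edgeR adjusted p = 0.00229). Slfn2 (chr11:83065112-83070678) was at 0.974, 1.88, 1.38 and 1.09 CPM in the wild-type libraries, 1.63, 2.87, 2.36 and 3.78 in Dp16, 3.90, 3.40, 2.74 and 4.68 in 5xFAD, and 2.09, 3.67, 2.53 and 3.58 in 5xFAD-Dp16. Both transgenic groups lay above wild-type, whereas Dp16 spanned from the wild-type range into that of 5xFAD. Slfn2 was called in 5xFAD against wild-type at 2.77-fold (log2 1.47 ± 0.303 SE, edgeR adjusted p = 0.0248), and missed the threshold in the averaged effect (log2 0.84 ± 0.221 SE, edgeR adjusted p = 0.0601). Slfn5 (chr11:82951349-82964840), the Schlafen gene with the highest RPKM, was at 8.47, 10.2, 9.31 and 8.51 CPM in the wild-type libraries, 13.7, 7.91, 10.98 and 10.99 in Dp16, 11.8, 13.3, 11.6 and 7.64 in 5xFAD, and 8.49, 10.8, 9.07 and 13.1 in 5xFAD-Dp16. Its groups overlapped and it did not pass (log2 0.17 ± 0.128 SE, edgeR adjusted p = 0.502).

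Of the 4 genes for membrane and secreted proteins 3 rose. Lgals3bp (chr11:118392751-118402092), a secreted glycoprotein that binds galectins, was at 18.6, 33.2, 33.8 and 26.99 CPM in the wild-type libraries, 32.2, 27.5, 31.1 and 47.2 in Dp16, 88.2, 58.1, 69.02 and 39.9 in 5xFAD, and 82.3, 79.5, 51.3 and 82.4 in 5xFAD-Dp16. Only 5xFAD replicate 4 among the transgenic libraries lay below Dp16 replicate 4, and all lay above wild-type. Lgals3bp rose 2.34-fold (log2 1.23 ± 0.165 SE, edgeR adjusted p = 0.000337), the smallest adjusted p of the 45 genes. Bst2 (chr8:71534255-71537456), tetherin, which holds budding virus at the cell surface, was at 3.02, 4.80, 5.66 and 3.62 CPM in the wild-type libraries, 4.61, 3.11, 3.04 and 6.67 in Dp16, 6.96, 8.24, 8.94 and 7.001 in 5xFAD, and 11.5, 7.85, 9.73 and 12.3 in 5xFAD-Dp16. All 8 transgenic libraries lay above the other 8. It rose 2.18-fold (log2 1.13 ± 0.186 SE, edgeR adjusted p = 0.00209). Ifitm3, which blocks viral entry and also modulates gamma-secretase, was at 6.28 to 14.3 CPM without the transgenes and at 13.3 to 19.6 CPM with them. It rose 1.61-fold (log2 0.69 ± 0.161 SE, edgeR adjusted p = 0.0299). The Ifitm3 call ended without wild-type replicate 1, Dp16 replicates 2 or 3, 5xFAD-Dp16 replicates 3 or 4 or 5xFAD replicate 2 (adjusted p up to 0.1101). Rtp4 had log2 0.92 and missed the threshold (edgeR adjusted p = 0.0562).

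Among the 8 other effectors 2 rose. Sp100 (chr1:85649988-85709998), a component of nuclear bodies, was at 2.92, 4.45, 4.54 and 5.80 CPM in the wild-type libraries, 5.06, 3.49, 3.10 and 4.35 in Dp16, 4.54, 6.52, 6.15 and 5.77 in 5xFAD, and 5.83, 7.13, 8.26 and 8.15 in 5xFAD-Dp16. 5xFAD-Dp16 lay above wild-type and Dp16, while 5xFAD overlapped with both. Sp100 rose 1.64-fold (log2 0.72 ± 0.151 SE, edgeR adjusted p = 0.0148), a call that ended without wild-type replicate 1, Dp16 replicate 2 or Dp16 replicate 3 (adjusted p up to 0.0588). Xaf1, a gene linked to apoptosis, was at 1.47 to 3.30 CPM without the transgenes and at 2.56 to 6.18 CPM with them. Xaf1 rose 1.77-fold (log2 0.83 ± 0.192 SE, edgeR adjusted p = 0.0294), and its call ended without wild-type replicates 1 or 3, Dp16 replicates 1, 2 or 3, 5xFAD-Dp16 replicates 3 or 4 or 5xFAD replicate 2 (adjusted p up to 0.103). Ifi27 (chr12:103434211-103440239), the member with the highest RPKM, was at 17.96, 34.96, 25.4 and 22.6 CPM in the wild-type libraries, 28.8, 23.6, 20.8 and 33.5 in Dp16, 29.01, 32.1, 40.1 and 38.2 in 5xFAD, and 39.8, 29.4, 41.6 and 44.8 in 5xFAD-Dp16. Its ranges overlapped and it missed the threshold (log2 0.56 ± 0.146 SE, edgeR adjusted p = 0.0550). Rsad2 (viperin), Cmpk2, Samd9l, Ifi35 and Ifi44 had log2 0.45, 0.22, 0.39, 0.48 and 1.09 and did not pass.

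The change was also read by the letters of the promoter. In the averaged 5xFAD effect the 20 members with an ISRE core had a median of log2 0.67 with 12 called, and the 15 without it a median of log2 0.73 with 7 called. The 10 members with no window had a median of log2 0.84 with 5 called. Of all tested genes 2.44% rose in this effect. Mx1, Mx2, Oas2 and Zbp1 among the members with no window were tested only because of the transgenic libraries. The same held for Oas1a among those with the core and Oasl1 among those without it. The counts above include the calls of Mx1, Zbp1 and Oas1a, so the sets are not compared on equal terms.

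The effect of the transgenes was also read on each chromosome 16 background. In 5xFAD against wild-type 6 of the 45 genes rose and 0 fell, where 0.965% of all tested genes rose and 0.00599% fell: Lgals3bp, Slfn8, Trim30a, Parp9, Ifit3b and Slfn2. All 45 fitted changes were positive (53.5% of all tested genes), with a median of log2 0.71, and in 23 members the groups' CPM did not overlap (3.18% of all tested genes, higher). Without the 6 members tested only because of the transgenic libraries, 6 of 39 were called and 39 were positive, with a median of log2 0.70. Each of the 6 calls ended when any 1 of 4 to 6 libraries was left out, each of them wild-type or 5xFAD. Without wild-type replicate 1, 0 members were called, and 115 of all tested genes were. In 5xFAD-Dp16 against Dp16 4 of the 45 rose and 0 fell, where 0.827% of all tested genes rose and 0.018% fell. Lgals3bp rose 2.45-fold (edgeR adjusted p = 0.0160), Bst2 2.62-fold (adjusted p = 0.0231), Sp100 2.05-fold (adjusted p = 0.0362) and Parp14 1.72-fold (adjusted p = 0.0450). The median was log2 0.75, 43 of the 45 were positive (53.4% of all tested genes), and 16 members did not overlap (3.71% of all tested genes, higher). Without the same 6 members, 4 of 39 were called and 38 were positive, with a median of log2 0.67. No member was called there without Dp16 replicate 2, Dp16 replicate 3 or 5xFAD-Dp16 replicate 4, and 6 were without 5xFAD-Dp16 replicate 3. Calls over all tested genes were 76, 80, 99 and 114 in those fits. These comparisons share no library. The fitted change was positive in both for 43 of the 45 members, against 38.6% of all tested genes, and in 10 members the groups did not overlap in either comparison (1.31% of all tested genes, higher in both). All counts without overlap were taken over the 45, those 6 members included.

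With both alterations together, 5xFAD-Dp16 against wild-type, 10 of the 45 rose and 0 fell, where 0.983% of all tested genes rose and 0.03% fell. They were Lgals3bp, Bst2, Slfn8, Irf9, Trim30a, Parp14, Oasl2, Ifit3b, Irf7 and Oas1a, and the median of the 45 was log2 0.84 (1.79-fold). In 22 members the groups did not overlap (3.08% of all tested genes, higher). Oas1a was tested only because of the transgenic libraries. Without the 6 members of that kind, 9 of 39 were called and 39 were positive, with a median of log2 0.80. Lgals3bp rose 2.97-fold (log2 1.57 ± 0.244 SE, edgeR adjusted p = 0.00317) and kept its call without any 1 library. Oasl2 rose 3.11-fold (edgeR adjusted p = 0.0126) and lost its call without wild-type replicate 1 (adjusted p = 0.0942). Irf7 lost its call without wild-type replicate 1 or 3 (adjusted p up to 0.0718), and Bst2 without wild-type replicate 1, 5xFAD-Dp16 replicate 1 or 5xFAD-Dp16 replicate 4 (adjusted p up to 0.111). The other 6 calls each ended when any 1 of 6 to 15 libraries was left out. Without wild-type replicate 1, 1 member was called, and 80 of all tested genes were.

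The duplication by itself moved no member past the threshold. In Dp16 against wild-type 0 of the 45 genes were called by edgeR, where 0.0839% of all tested genes rose and 0% fell, and 0 by DESeq2. At an unadjusted p below 0.05 there were 3 higher, Slfn2, Dtx3l and Mx2, and 0 lower, where 1.5% and 1.81% of all tested genes were. The median of the 45 was log2 0.14, against -0.013 over all tested genes, 35 were positive (46.9% of all tested genes), and no member's groups were free of overlap, where 1.37% of all tested genes were apart upward and 1.55% downward. Slfn2 was the nearest to the threshold, with log2 1.01 ± 0.303 SE (edgeR unadjusted p = 0.00443, adjusted p = 0.907) and 3 of 4 Dp16 values above the wild-type range. On the 5xFAD background, 5xFAD-Dp16 against 5xFAD, 0 of 45 were called by edgeR and 0 by DESeq2, where 0.0539% of all tested genes rose and 0% fell. At an unadjusted p below 0.05, Irf7 and Sp100 were higher and 0 members lower, where 1.49% and 1.79% of all tested genes were. Of the 45 changes 30 were positive (49.4% of all tested genes). The median there was log2 0.12, and -0.058 without 5xFAD-Dp16 replicate 4. Mx2 did not overlap upward (1.33% of all tested genes) and Parp9 downward (1.28%), but Mx2 was tested only because of the transgenic libraries. Without the 6 members of that kind, 32 of 39 changes were positive in Dp16 against wild-type, with a median of log2 0.14. In 5xFAD-Dp16 against 5xFAD 26 of 39 were positive, with a median of log2 0.10.

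Averaged over both backgrounds, the Dp16 effect passed in 0 of the 45 genes with edgeR and with DESeq2, where 0.21% of all tested genes rose and 0.024% fell. At an unadjusted p below 0.05 there were 0 lower (2.57% of all tested genes) and 3 higher (2.03%): Mx2 (log2 1.18 ± 0.381 SE, edgeR adjusted p = 0.742), Irf7 (log2 0.63 ± 0.212 SE, adjusted p = 0.848) and Oasl2 (log2 0.50 ± 0.207 SE, adjusted p = 0.949). Of the pair of Mx genes in the duplicated segment, Mx2 had a positive fitted change on both backgrounds, with log2 1.29 against wild-type and 1.06 against 5xFAD. Mx1 had log2 -1.48 ± 1.09 SE in Dp16 against wild-type, 0.52 ± 0.821 SE in 5xFAD-Dp16 against 5xFAD and -0.48 ± 0.654 SE on average, and neither gene exceeded 32 counts in a library. The median over the 45 was log2 0.15, with 37 positive (47.5% of all tested genes). Without the 6 members tested only because of the transgenic libraries, Mx1 and Mx2 among them, 34 of 39 were positive, with a median of log2 0.15.

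The interferon receptor subunits of the segment did rise with the duplication. Ifnar1 was at 51.2 to 62.6 CPM in the 8 libraries with it and at 33.5 to 38.2 CPM in the other 8, and rose 1.57-fold in the averaged Dp16 effect (edgeR adjusted p = 7.69e-05). Ifnar2 rose 1.55-fold (adjusted p = 0.00120) and Ifngr2, a subunit of the interferon gamma receptor, 1.59-fold (adjusted p = 0.000247). Il10rb, shared by interleukin 10 and interferon lambda receptors, rose 1.56-fold (adjusted p = 0.0402). None of these 4 receptor genes passed in the averaged 5xFAD effect, and Ifngr1, which lies elsewhere, passed in neither.

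No interaction between duplication and transgenes passed. For this difference of effects 0 of the 45 were called by edgeR and by DESeq2, where 0% of all tested genes were in either direction. Of the 45, 24 were positive (49.4% of all tested genes), and 21 of 39 without the 6 members tested only because of the transgenic libraries. The median of the 45 was log2 0.021, with a median SE of 0.367 for single genes. At an unadjusted p below 0.05, where 1.12% of all tested genes were higher and 0.869% lower, there were Slfn2 (log2 -1.26 ± 0.431 SE, unadjusted p = 0.0102, edgeR adjusted p = 1.00) and Sp100 (log2 0.63 ± 0.291 SE, unadjusted p = 0.0458). The mean of Slfn2 was 1.33 ± 0.403 CPM for wild-type libraries and 2.66 ± 0.906 for Dp16 libraries. Its mean was 3.68 ± 0.821 CPM for 5xFAD libraries and, lower than that, 2.97 ± 0.778 for the libraries with both alterations (SD, n = 4). Females and males did not differ at the threshold in any member with edgeR or DESeq2, where 0.018% of all tested genes were higher and 0.03% lower in females. Irf7, Oas1a, Parp14 and Ifi35 were higher in females at an unadjusted p below 0.05 and 0 lower, where 4.3% and 1.53% of all tested genes were. In 36 of the 45 the fitted change was positive (49.4% of all tested genes), with a median of log2 0.19.

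Single libraries stood out over many members at once. Each library was scored by the median over the 45 genes of its log2 CPM minus the wild-type mean. The score was -0.22, 0.031, 0.052 and 0.22 in wild-type, 0.17, 0.067, 0.12 and 0.43 in Dp16, 0.69, 0.84, 0.85 and 0.68 in 5xFAD, and 0.52, 0.76, 0.55 and 1.14 in 5xFAD-Dp16. The 8 libraries with the transgenes lay above the other 8, while wild-type and Dp16 overlapped, as did 5xFAD and 5xFAD-Dp16. Wild-type replicate 4 was the highest of its group in 23 of the 45 genes, Dp16 replicate 4 in 28 and 5xFAD-Dp16 replicate 4 in 35. Wild-type replicate 1 was the lowest of its group in 21, and 5xFAD replicate 4 in 24.

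In Dp16, 5xFAD and 5xFAD-Dp16 the library with the highest score was not the one with the highest microglial sum, and in wild-type replicate 4 was both. In 5xFAD-Dp16, replicate 4 had the highest score and the lowest microglial sum, 567 CPM against 578 to 698 in the other 3. Replicate 1 of 5xFAD had the highest microglial sum of all libraries, 945 CPM, at a score of 0.69. Dp16 replicate 4, with the highest score of its group, had the lowest microglial sum of its group, 367 CPM. Between groups, the libraries with the transgenes lay above all others in both the score and the sum. The part of microglia in the score was not tested.

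**Figure D4:**
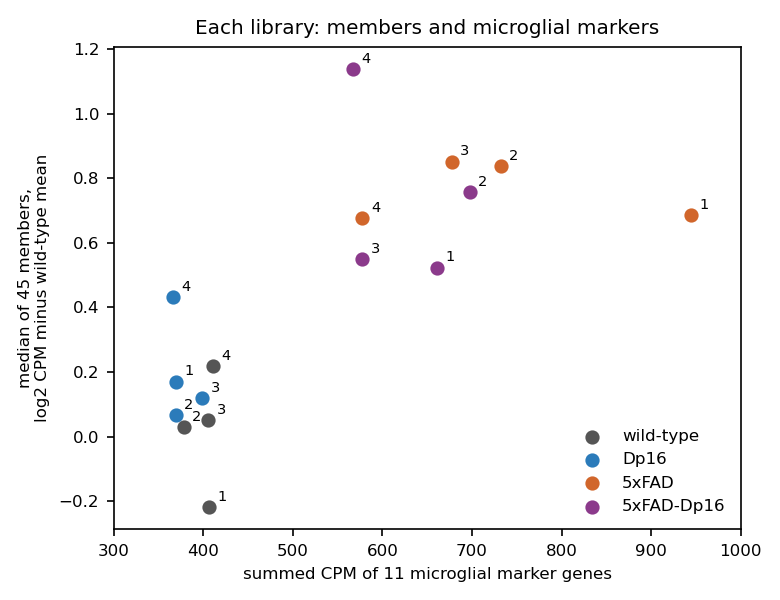
Median log2 CPM of the 45 genes relative to the wild-type mean (vertical axis) against the summed CPM of 11 microglial markers (horizontal axis), 1 point per library with its replicate number. The 8 libraries with the 5xFAD transgenes lie up and to the right of the other 8, and 5xFAD-Dp16 replicate 4 is the highest point at a sum of 567 CPM.

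The genes upstream of the members were read from a list of 42 interferon pathway genes outside the 45, of which 32 were tested. Of the 9 ligand genes, 8, among them Ifnb1 and Ifna4, had 0 counts in all 16 libraries, and Ifng had 2 counts in 1 library. Of the 32 tested, 6 rose and 0 fell in the averaged 5xFAD effect, where 2.44% of all tested genes rose and 0.12% fell. Among those that rose, Irf8, a factor of the myeloid lineage, rose 2.86-fold (edgeR adjusted p = 3.94e-06), Tlr7, a sensor of single-stranded RNA, 2.07-fold (adjusted p = 0.00173), Irf5 1.76-fold (adjusted p = 0.00401), Tmem173 (STING) 1.57-fold (adjusted p = 0.0299) and Irf1 1.31-fold (adjusted p = 0.0397). The kinases Jak1, Jak2 and Tyk2 and the 4 inhibitors Socs1, Socs3, Pias1 and Ptpn2 did not pass.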

How the data were processed

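RNA was extracted from hippocampus with TRIzol, enriched for poly-A and made into strand-specific libraries read as paired ends, per the labels' protocols. The processing used bcl2fastq, FastQC 0.11.5, HISAT2 2.1.0, SAMtools 1.5 and HTSeq 0.6.1 with GRCm38, per the submitters' processing notes, while for the counting no strand setting is given in the sources used here. The authors deposited raw counts per gene and RPKM values. RPKM was used only to compare levels between genes.

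The counts were analysed with edgeR 4.0.16 in R 4.3.3. Genes were filtered by edgeR's default for the 4 genotypes, which left 16684 of 55385, and libraries were scaled by TMM. A robust quasi-likelihood model with terms for genotype and sex was fitted to the 16 libraries together, so that all groups inform the estimate of the spread, and p-values were adjusted by Benjamini-Hochberg over all genes tested. The SE of a log2 fold change was its size divided by the root of the test statistic. Comparisons of 5xFAD-Dp16, a group of males, assume the sex effect of the other genotypes. DESeq2 1.42.0 was an alternative. Others were scaling by RLE, no filter, no sex term, males only, only the groups compared, a block for replicate number, libraries left out and terms for other tissues. Library scores used a prior count of 2.

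The members, pathway genes and marker lists were chosen with earlier results of these data known, and 1 of the pathway genes is not reported here. Members were given in full if they were among the 20 called genes with the smallest p, lay in the segment or had the highest RPKM of their role group, which gave 28. Libraries of a group differed by more than sampling noise. The edgeR fit was tested on simulated data for some of the comparisons only. Motifs were searched with Python 3.11.15, and coordinates of genes are those of a GRCm38 annotation. Gene copies were aligned with Biopython 1.88. Total counts of 15.8 to 25.0 M per library limit the precision of members below 1 CPM, which rest on few reads.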

Additional observations from a re-analysis of the deposited data

Results flagged for a closer look

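For members given in full and for library scores, 116 groups of 4 libraries were examined for a library apart from the other 3 by Dixon's criterion. In 10 groups there was one, where chance flags about 1 in 20. Irf9 was high in replicate 4 of 3 genotypes: 9.15 CPM in wild-type against 7.30 to 7.55 in the other 3 libraries, 10.5 in Dp16 against 7.16 to 7.48, and 17.9 in 5xFAD-Dp16 against 10.5 to 11.2. Oas1a was high in Dp16 replicate 4, at 1.14 CPM against 0.471 to 0.562, in 5xFAD replicate 1, at 2.49 against 1.04 to 1.23, and in 5xFAD-Dp16 replicate 4, at 2.89 against 1.08 to 1.24. Ifit1 was high in Dp16 replicate 4, at 3.83 CPM against 2.30 to 2.54. Isg15 was high in 5xFAD-Dp16 replicate 4, at 5.21 CPM against 2.09 to 2.53. Trim25 was low in 5xFAD-Dp16 replicate 2, at 10.2 CPM against 12.7 to 12.8. Lgals3bp was low in 5xFAD-Dp16 replicate 3, at 51.3 CPM against 79.5 to 82.4.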

How the results depend on the processing

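Calls of members depended on the setting, and their direction did not reverse in any setting run. In 5xFAD against wild-type the 6 members called became 15 with DESeq2, 16 with no filter, 1 with only those 2 groups and 0 with males only, while calls over all genes, 161 higher and 1 lower, became 292, 398, 76 and 44. In 5xFAD-Dp16 against wild-type the 10 became 21 with DESeq2, 21 with no filter, 0 with only those 2 groups and 2 with males only, while those over all genes, 164 higher and 5 lower, became 267, 355, 40 and 61. In 5xFAD-Dp16 against Dp16 the 4 became 12 with DESeq2, 15 with no filter, 2 with no sex term, 2 with only those 2 groups and 1 with males only, while those over all genes, 138 higher and 3 lower, became 269, 620, 107, 81 and 49. In the averaged 5xFAD effect the 24 became 31 with DESeq2, 31 with no filter, 6 with males only and 14 with terms for choroid plexus and midbrain genes, the last chosen after seeing the data, while those over all genes, 407 higher and 20 lower, became 693, 1284, 169 and 276. Fewer libraries enter the fits of males only and of 2 groups, and otherwise the cause was not tested. Leaving out 1 library gave 0 to 7, 1 to 10, 0 to 6 and 15 to 25 calls in these 4 comparisons and 0 in the other 5. In the fits with the fewest member calls, calls over all genes were 115, 80, 76 to 99 and 307. In those with the most they were 143 to 172, 145, 114 and 459 to 519. The median log2 change ranged from 0.65 to 0.92 in 5xFAD against wild-type, where it was highest without wild-type replicate 3, and from -0.17 to 0.085 in the interaction, where it was lowest without 5xFAD-Dp16 replicate 4. The replicate numbers did not pair the samples: 9 of 24 same-number pairs correlated above 0.1, and 3 of 16 libraries correlated best with their own number. With a replicate block the counts were 6, 8, 4 and 25 in these 4 comparisons, of which 4, 5, 3 and 22 were calls made without the block, and 0 in the others. Calls over all genes were 162, 173, 148 and 480 with the block in these 4 comparisons. The block ended the calls of Lgals3bp and Slfn8 in 5xFAD against wild-type, of Oas1a, Oasl2, Parp14, Slfn8 and Trim30a in 5xFAD-Dp16 against wild-type, of Parp14 in 5xFAD-Dp16 against Dp16, and of Gbp2 and Irgm1 in the averaged effect. Tissue settings also ended calls in the averaged 5xFAD effect. The terms for choroid plexus and midbrain genes ended those of Gbp2, Ifitm3, Irf7, Irgm1, Isg15, Sp100, Trim25, Usp18, Xaf1 and Zbp1. Leaving out wild-type replicate 4, 5xFAD replicates 2 and 4 and 5xFAD-Dp16 replicate 3 ended those of Ifitm3, Isg15, Mx1 and Xaf1. Depth limits Mx1, Mx2, Zbp1, Oas2 and Oasl1, which had few counts.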
